A study of Mus musculus with 12 samples.

Results

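The regions described here are N6-methyladenosine (m6A) peaks that lie in the last exon of a transcript but outside annotated untranslated regions (UTRs). They were taken from the peak lists by their annotation, which had to begin with "Exon" and to name the final exon of a transcript with more than 1 exon. The list of wild-type (WT) hippocampus held 3727 such peaks among 33622, which is 11.1% of the list (95% exact interval 10.8 to 11.4). The list of Tyrobp-knockout (KO) hippocampus held 3856 among 34935, or 11.0% (10.7 to 11.4). A further table, in which the submitters compared the genotypes, held 541 among 5640 rows, or 9.59% (8.84 to 10.4).

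m6A is the most abundant internal modification of messenger RNA. It is written during transcription by the METTL3-METTL14 complex, mostly at the consensus DRACH, and it affects splicing, export, translation and decay through reader proteins. In mammalian mRNA the mark is concentrated around stop codons and in long exons, above all in last exons, and in the brain it is studied for its part in neuronal development and memory. The annotation tool used by the submitters gives a UTR priority over an exon, so a last-exon peak here is either a peak in the coding part of a terminal exon or a peak in the terminal exon of a noncoding transcript.

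All animals were C57BL/6 mice of 6 months, and both groups were sampled as hippocampus. The WT group comprised littermates without the deletion, and the Tyrobp KO (*Tyrobp*-/-) group carried a TALEN deletion in exon 2 of *Tyrobp*, the gene of an adaptor protein of microglial receptors. The deletion is constitutive, and the mice were males according to the study's methods. Each sample pooled RNA of 3 hippocampi, and each genotype gave 3 immunoprecipitated (IP) and 3 input libraries, 12 libraries in all, with 61189368 to 73554506 valid reads each. The labels name 1 peak list per genotype for its 3 replicates, and how the replicates were combined is not stated. Each peak thus has 1 value per genotype, no replicate error can be given, and no test between genotypes was made. Intervals given below cover counting error only. No peak of *Tyrobp* itself was listed in either genotype. Peaks were listed for 10 of 11 markers of hippocampal neurons in both genotypes, all except *Spink8*, for 10 of 13 microglial markers in both (*Trem2*, *Tyrobp* and *Itgam* were without a peak), and for all 8 oligodendrocyte markers. Of 6 hypothalamic markers, 3 had a peak in WT and 1 in KO, and of 4 choroid plexus markers 2 had one in WT and 1 in KO. A peak call is not a measure of expression, so these counts do not show how much of a cell type or tissue was sampled. The part of other tissues in the results below was not tested.

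Several last-exon peaks covered microRNA precursors, and their mature sequences (RefSeq, GRCm38.p6) are shown because these are the members whose exact RNA product is known. Capitals mark the seed, bases 2 to 8, which pairs with target mRNAs.
mmu-miR-9-5p: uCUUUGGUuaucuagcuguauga
mmu-miR-9-3p: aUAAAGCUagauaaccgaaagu
mmu-miR-101a-3p: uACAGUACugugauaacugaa
mmu-miR-770-5p: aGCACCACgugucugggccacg
mmu-miR-1905: cACCAGUCccaccacgcgguag
mmu-miR-1896: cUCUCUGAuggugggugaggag

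None of these 6 seeds was shared. The brain-enriched miR-9 regulates neuronal differentiation, and one of its precursors, *Mir9-2* (chr13:83738814-83738885, GRCm38, 72 bases, forward strand), lay whole within last-exon peaks of both genotypes. The host is *C130071C03Rik*, and the peak was in exon 4 of 4 of that noncoding RNA. Its fold enrichment, the IP signal over the input signal, was 12.5 in WT at chr13:83738218-83739147 and 19.4 in KO at the longer span chr13:83735658-83739117. The precursor of miR-101a (chr4:101346945-101347027, reverse strand) was touched at its edge only, by 31 of its 83 bases, and neither mature product lay wholly inside the peak. That peak had a fold enrichment of 3.10 in WT and 5.05 in KO. *Mir770*, in exon 5 of 5 of a transcript of the imprinted noncoding gene *Meg3*, formed a last-exon peak in WT only, at a fold enrichment of 1.91 and a peak-calling false discovery rate (FDR) of 0.00102. The borders of that peak, chr12:109563692-109563785, were those of the precursor itself. *Mir1905*, in exon 2 of 2 of *Mex3a*, a gene of an RNA-binding protein, was listed in WT only at 7.81 with an FDR of 0.162, which is a weak call. *Mir1896*, in exon 3 of 3 of *4930470G03Rik*, was a last-exon peak in KO at 11.4, and in WT the same precursor was covered by peaks annotated as 3′ UTR. The difference between genotypes for *Mir1896* was thus in the annotation and not in the presence of a peak.

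Sequence could be read for the few last-exon peaks that overlapped a promoter window, which spans 300 bases at the start of a RefSeq gene, and the motif GGACT was searched there on the strand of the exon only. This motif is a frequent form of the m6A consensus. Stretches of at least 50 bases were found for 30 WT peaks and 39 KO peaks. The motif was present at 4 sites in 4140 bases of WT stretches (0.966 per 1000 bases) and at 5 sites in 5821 bases of KO stretches (0.859 per 1000 bases). Over the stretches of all peaks the densities were 1.37 in WT and 1.31 in KO, and over all 32851 windows the density was 1.03, with the motif in 26.1% of windows. The numbers of last-exon sites are small, and the densities are given as a description. Examples follow with the motif in capitals, one of them present in both genotypes.
Zfp648, WT, chr1:154205461-154205489, forward strand: ttcaggggacaaGGACTtcctctgtgcag
Gm9888, WT and KO, chr9:114781977-114782005, forward strand: cacgcggaagttGGACTggcgtgggcagg
St6galnac5, KO, chr3:152975544-152975572, reverse strand: gaaggagatgtgGGACTccacttagcaag

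The *Gm9888* site, in exon 3 of 3, lay in a peak with a fold enrichment of 12.7 in WT and 14.3 in KO. The *Zfp648* site was inside a WT peak of 23.4, downstream of the larger *Zfp648* peak described below. The peak of *St6galnac5*, which encodes a brain sialyltransferase, stood at 9.99 and had no overlapping peak in WT.

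Last-exon peaks were narrower than the peaks of the lists as a whole. They also had a higher median fold enrichment and were less often called at a strict FDR. The traits of fold enrichment and FDR were shared with peaks in first exons and single-exon transcripts. A clearly narrower width was shared only with single-exon transcripts. Their median fold enrichment was 6.84 in WT (quartiles 3.57 and 9.77) and 6.67 in KO (3.81 and 9.53), against 5.54 and 5.72 over all peaks, 4.32 and 4.41 over internal exons, and 5.20 and 5.28 over 3′ UTRs. First exons had the same medians, 6.84 and 6.67, and single exons had 7.03 and 6.67. The median width of last-exon peaks was 268 bases in WT and 241 in KO, against 408.5 and 389 over all peaks. It was 417 and 358 in first exons and 240 and 239 in single exons. An FDR of at most 1e-05 was reached by 38.0% of last-exon peaks in WT and 36.9% in KO, against 64.4% and 63.3% of all peaks, 40.8% and 40.1% in first exons and 32.8% and 28.5% in single exons. An FDR over 0.05 was held by 20.4% and 21.0% of them, against 10.3% and 11.0% of all peaks. Almost all were a single unspliced block, 94.2% in WT and 93.6% in KO, against 71.1% and 73.5% of all peaks. The share was higher still in single exons, at 97.8% and 98.1%, and lower in first exons, at 60.8% and 63.6%.

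**Figure D1:**
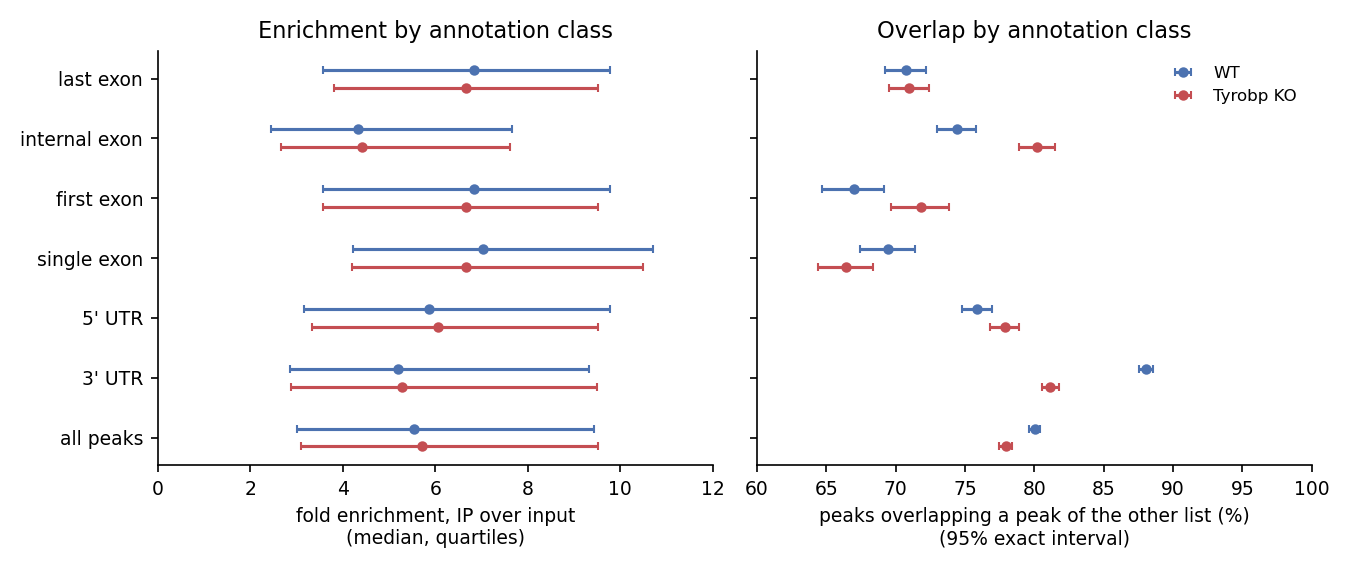
The left panel plots the fold enrichment of IP over input (median with quartiles) for each annotation class in WT and Tyrobp KO, and the right panel plots the percentage of each class that overlaps a peak of the other genotype, with 95% exact intervals, on an axis that starts at 60%. Last-exon peaks sit at medians of 6.84 and 6.67, above internal exons and 3′ UTRs and level with first exons (6.84 and 6.67). Their overlap of 70.7% and 71.0% is below that of all peaks, as is that of first exons (67.0% and 71.8%) and single exons (69.4% and 66.4%).

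Many fold values were stepped. Values under 20 fell on whole multiples of 0.9765 in WT and 0.953 in KO, within the rounding to 3 digits, for 41.5% and 43.2% of last-exon peaks. These steps were picked to hold as many values of each whole list as possible. Such a spacing is what whole IP reads over a single input read would give, but whether this was the origin of the values was not tested. The share on the step was 24.0% in WT and 24.8% in KO over all peaks. It was 41.1% and 41.5% in first exons and 49.6% and 50.9% in single exons, so the stepping was not particular to last exons. On a grid shifted by 0.3 of a step, only 0.590% and 0.985% of last-exon peaks matched. The values 9.77 and 9.53, which recur among the members, are such multiples. Values of 20 or more were left out of this check, so whether the high values named below were stepped was not tested. In WT the peaks of *Zfp648* and *Kcnmb4* had the same fold enrichment, 35.2, and the same FDR, 2.75e-09. Reads per peak are not given in the lists, so the error of a single fold value cannot be computed.

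Gene models and long noncoding genes made up more of the last-exon peaks than of the lists as a whole. Peaks over UTRs were left out, and noncoding transcripts carry no UTR annotation. Higher shares of noncoding genes thus follow at least in part from the selection and are given as a description. Genes known only as models, with names such as Gm20388 or 6430584L05Rik, held 39.9% of last-exon peaks in WT and 41.9% in KO, against 16.3% and 16.2% of all peaks. The share was higher still in first exons (46.6% and 45.8%) and in single exons (59.3% in both). By RefSeq biotype, which could be matched by symbol for 3230 WT and 3325 KO members, 57.2% and 55.4% of last-exon peaks were in protein-coding genes, against 83.6% of all peaks in both lists. Long noncoding genes held 25.4% and 27.1%, against 6.39% and 6.50% of all peaks. Seen from the other side, 44.1% of all peaks in long noncoding genes were last-exon peaks in WT and 46.0% in KO, whereas in protein-coding genes the share was 7.59% and 7.32%. Short gene structures prevailed: the last exon was the second of 2 exons in 37.9% and 38.3% of peaks and belonged to a transcript of 10 or more exons in 6.76% and 6.51%. The median fold enrichment was 6.84 in WT and 6.67 in KO for 2-exon transcripts and 4.88 in both for 10 or more exons. Chromosome 13 had the highest share, with 17.0% of its peaks in last exons in WT and 16.8% in KO, and gene models made up 54.7% and 56.7% of its members.

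Whether the exon belongs to the gene named for the peak could be read from the transcript and gene identifiers in each annotation. For 2358 WT peaks (63.3%) and 2399 KO peaks (62.2%) the exon was that of the listed transcript, for 692 and 743 it was that of another transcript of the same gene, and for 677 and 714 (18.2% and 18.5%) it was that of a different gene. In the last set the strand of the exon's gene was given for 263 and 270 peaks, and it was opposite to that of the listed gene in 207 (78.7%) and 213 (78.9%). For these members the listed gene name is uncertain, and the exon's own gene is given with such peaks where the lists name it. The library preparation marked strand, but the lists do not state whether peak calling used it.

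For peaks in the exon of the listed transcript, a position towards its 3′ end follows from the choice of last exons, and the values are given as a description. Their centres stood at a median of 0.917 of the genomic span of the transcript in WT and 0.924 in KO, and 74.5% and 75.6% of them lay beyond 0.8. Forward and reverse genes were alike, at 0.932 and 0.898 in WT. The other kinds were spread along the gene, with medians of 0.463 and 0.461 for another transcript of the same gene. The distance from the peak to the 3′ end was measured for the same peaks. Because peaks over UTRs were left out, members in coding sequence lie upstream of any annotated 3′ UTR. Some members in protein-coding genes nevertheless reached the end, as given below. The difference between gene kinds is likewise a description. In protein-coding genes, with 1120 such peaks in WT and 1076 in KO, the median distance was 1554 bases in WT (quartiles 593 and 2716) and 1560.5 in KO, and 7.68% and 9.20% of peaks reached the end. In long noncoding genes, with 772 and 849 such peaks, the median was 298 bases in WT (quartiles 0 and 1041) and 235 in KO, and 28.0% and 30.7% reached the end.

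**Figure D2:**
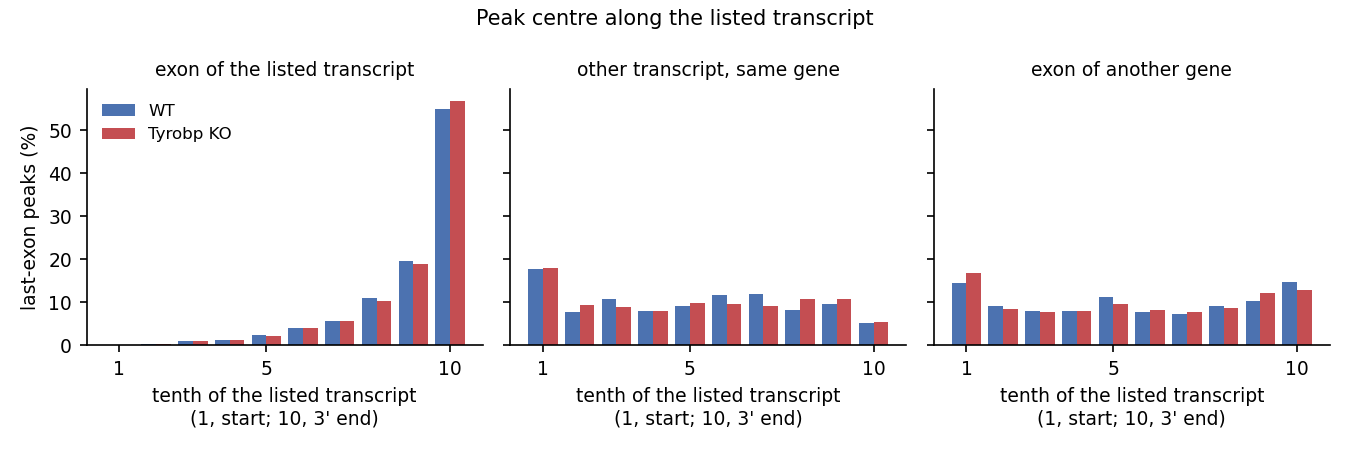
Each bar gives the percentage of last-exon peaks (WT and Tyrobp KO) whose centre falls in each of 10 equal bins of the listed transcript, from 1 at its start to 10 at its 3′ end, introns included, in 3 panels by whose exon it is. Peaks in the exon of the listed transcript lie mostly towards the end, as the choice of last exons entails, with 54.9% of WT peaks in bin 10, and the other panels are spread over the whole span.

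Among gene families, zinc finger genes, whose DNA-binding arrays are usually encoded in 1 long terminal exon, were the largest of the gene families examined. They held 200 last-exon peaks in 135 genes in WT and 216 in 148 genes in KO, which was 16.1% (14.1 to 18.3) and 16.4% (14.4 to 18.5) of all their peaks. The highest was *Zfp976*, exon 3 of 3, at chr7:42609526-42610453 in both genotypes, with a fold enrichment of 89.8 in WT and 34.3 in KO. *Zfp648*, exon 2 of 2, stood at 35.2 in WT and 29.5 in KO. *Zfp619*, exon 4 of 4, stood at 20.3 in WT and 12.7 in KO. WT was the higher genotype at all 3 genes. They were named for their high WT values, so this direction follows at least in part from the choice. Over 113 matched zinc finger pairs the median log2 ratio of KO over WT was 0.02. Of these pairs, 5 (4.42%) were at least 2-fold higher and 6 (5.31%) at least 2-fold lower in KO. Over all matched pairs of the lists these shares were 7.13% and 6.27%, and over all last-exon pairs 10.4% and 10.9%.

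Listed long noncoding RNAs had the highest share of any group, 37 of 74 peaks in WT (50.0%, 38.1 to 61.9) and 37 of 77 in KO (48.1%, 36.5 to 59.7). This too follows at least in part from leaving out peaks over UTRs. *Mirg*, a microRNA-containing noncoding gene of the imprinted Dlk1-Dio3 region, peaked in exon 17 of 17 at 72.3 in WT and 37.4 in KO. *Pvt1*, a noncoding gene next to Myc, had 14.6 in WT and 8.58 in KO in exon 10 of 10, the latter with an FDR of 0.0912. The peak listed for *Ftx*, a noncoding gene of the X-inactivation centre, lay in exon 4 of 4 of its neighbour *Jpx* and had 11.7 in WT and 6.67 in KO. These 3 were lower in KO, but they too were named for their high WT values, which favours that direction. Over 23 matched pairs of the group the median log2 ratio was 0.32, with 14 pairs higher and 9 lower in KO. At least 2-fold higher were 4 pairs (17.4%, 4.95 to 38.8) and at least 2-fold lower 1 pair (4.35%, 0.110 to 21.9), intervals that hold the shares over all matched pairs, 7.13% and 6.27%.

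The highest value of any matched last-exon peak in WT was that listed for *Tsix*, the antisense RNA of *Xist*. It was in exon 7 of 7 of a gene other than *Tsix*, at chrX:103460396-103460935. RefSeq assigns that position to *Tsix* and *Xist*, so the annotated exon is by position that of *Xist*. Whether peak calling used strand is not stated, so the RNA of origin of this peak cannot be told from the list. The fold enrichment was 131 in WT and 19.1 in KO, a log2 ratio of -2.78, with an FDR listed at 0 in both. A second peak in the same exon, at chrX:103466148-103466597, had 9.30 in WT and 7.28 in KO. The peak in the last exon of *Tsix* itself, exon 4 of 4, had 12.7 in WT and 10.1 in KO, and both lists gave it again at a shift of a few bases. The listed values thus differed widely at the first position and little at the other ones. The first position was named for its value and its ratio, so the difference is a description. The study's mice were males, and what a peak at the position of *Xist* reflects in them was not tested.

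Receptors and channels were represented by fewer genes. G protein-coupled receptors had 45 last-exon peaks in 31 genes in WT and 40 in 29 genes in KO, or 14.1% (10.5 to 18.4) and 12.9% (9.35 to 17.1) of their peaks. *Gpr179*, a receptor of the visual system, had 41.0 in WT and 17.2 in KO in exon 11 of 11, while other pairs in that exon had 25.4 against 15.2 and 12.7 against 21.9. *Htr1d*, a serotonin receptor, had 24.4 in WT and 4.53 in KO in exon 2 of 2, the KO peak with an FDR of 0.00851. *Chrm3*, the M3 muscarinic acetylcholine receptor, had 14.5 in WT and 15.4 in KO in exon 5 of 5, with an FDR listed at 0 in both, and so was nearly level. In the 22 matched receptor pairs, from 18 genes, 5 (22.7%, 7.82 to 45.4) were at least 2-fold higher in KO, against 7.13% over all matched pairs. At least 2-fold lower were 2 (9.09%, 1.12 to 29.2), against 6.27%. Both intervals hold the shares over all last-exon pairs, 10.4% and 10.9%. Of the receptor pairs, 2 lay just inside 2-fold by a factor of up to 1.1.

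Ion channel genes had 31 last-exon peaks in WT (7.28% of their peaks) and 35 in KO (7.88%). *Kcnmb4*, an accessory subunit of BK potassium channels, had 35.2 in WT and 22.9 in KO in exon 2 of 2 of a second transcript. The peaks listed for *Kcng2* (25.4 in WT, 16.7 in KO) and *Kcnab1* (23.4 in WT, 30.5 in KO), both modulators of voltage-gated potassium channels, lay in exons of other genes. Of 16 matched pairs, 1 (6.25%, 0.158 to 30.2) was at least 2-fold higher and 2 (12.5%, 1.55 to 38.3) were at least 2-fold lower in KO, intervals that hold the 7.13% and 6.27% over all matched pairs.

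Glutamate and GABA receptor genes had 9 last-exon peaks in WT and 10 in KO. The NMDA receptor subunit gene *Grin2a* had 9.72 in WT and 12.5 in KO in exon 14 of 14, with an FDR listed at 0 in both. The peak listed for *Grin2d* lay in exon 2 of 2 of *Gm45441* and had 7.92 in WT and 7.22 in KO. *Grin1* had 2 peaks in the last exon of a short transcript in WT, at 6.84 and 5.86, and 1 in KO at 17.6. Of the 5 matched pairs, 2 were at least 2-fold higher in KO (95% interval of the share 5.27 to 85.3%, against 7.13% over all matched pairs) and none at least 2-fold lower (6.27% over all), too few pairs to set apart from these shares.

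Leucine-rich repeat adhesion genes, which organise synapses, had only 3 last-exon peaks in WT and 4 in KO, or 3.37% (0.701 to 9.54) and 4.65% (1.28 to 11.5) of their peaks. *Lrfn1* had 24.8 in WT and 20.9 in KO in exon 4 of 4, *Lingo2* had 13.5 and 8.18 in exon 2 of 2. *Lrrn4* had a narrow WT peak of 2.54 beneath a KO peak of 53.4, which were not each other's best match. Immediate early genes had 2 peaks in each list, of which the WT pair was in *Egr2*, a transcription factor induced by neuronal activity, at 7.23 and 2.69.

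Genes tied to Alzheimer's and Nasu-Hakola disease had 2 last-exon peaks among 30 in WT (6.67%, 0.818 to 22.1) and 1 among 26 in KO (3.85%, 0.0973 to 19.6), intervals that hold the 11.1% and 11.0% over all peaks. *Apoe*, the lipid carrier, had a WT peak of 1.41 in exon 4 of 4, and *Gsk3b*, a tau kinase, had a WT peak of 4.39 with an FDR of 0.139. Among m6A enzymes and readers the count was 1 of 36 in WT and 3 of 43 in KO, and the single matched pair, listed for the reader *Ythdc1*, lay in the exon of another gene at 2.06 in WT and 2.00 in KO. Of the cell type markers, those of hippocampal neurons had 4 last-exon peaks in WT and 5 in KO, microglial markers 1 and 2, astrocyte markers 1 and 0, and oligodendrocyte markers none.

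**Figure D3:**
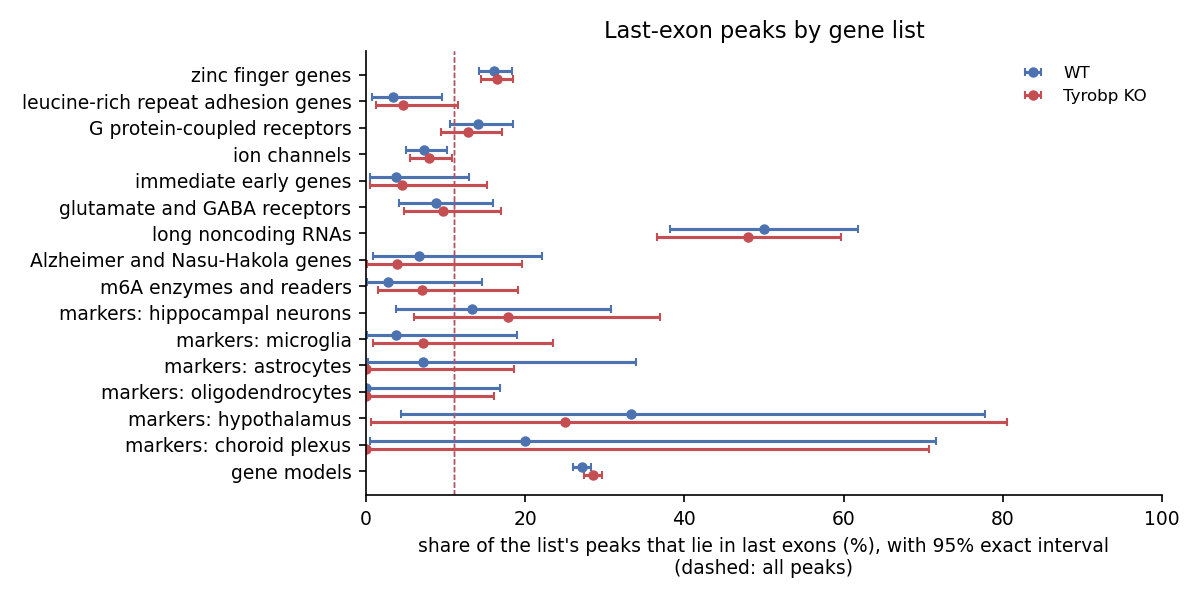
Points give the percentage of each gene list's peaks that lie in last exons in WT and Tyrobp KO, with 95% exact intervals, and the dashed lines mark the shares over all peaks, 11.1% and 11.0%. Long noncoding RNAs at 50.0% and 48.1%, gene models at 27.1% and 28.5% and zinc finger genes at 16.1% and 16.4% have intervals above the dashed lines in both genotypes, and ion channels have intervals below them. Noncoding transcripts carry no UTR annotation, so their higher shares follow at least in part from the selection.

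Several members could share 1 exon. *Ahnak*, which encodes a very large scaffold protein from a single giant last exon, had the most, with 19 last-exon peaks in WT and 20 in KO. They lay in exon 5 of 5 on chromosome 19, covered 8684 bases in WT and 8448 in KO, and were modest in fold, from 1.87 to 5.54 in WT (median 2.80) and from 1.59 to 6.99 in KO (median 2.62). Near the 3′ side the peak at chr19:9013940-9015079 in WT and chr19:9013850-9015259 in KO, had 5.51 in WT and 6.99 in KO. Among 14 matched pairs the log2 ratio of KO over WT ran from -0.86 to 0.55 with a median of -0.12, and no pair reached 2-fold. *Gm20388* came next with 11 peaks in WT and 14 in KO, all in exons of other genes within its span. *Eppk1*, the gene of the cytolinker epiplakin, had 8 in WT and 6 in KO in exon 2 of 2, from 4.17 to 14.6 in WT and from 3.62 to 13.3 in KO.

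**Figure D4:**
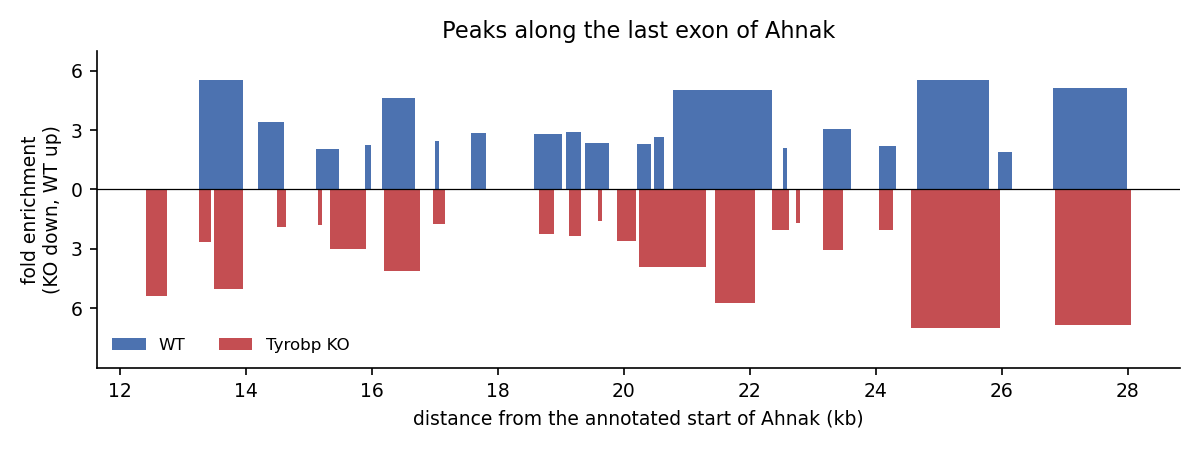
Each bar is 1 peak in the last exon of Ahnak, drawn at its distance in kb from the annotated start of the gene and as wide as the peak, with its fold enrichment upwards in WT (19 peaks) and downwards in Tyrobp KO (20 peaks). Peaks tile the exon in both genotypes, and the tallest bars, 5.54 in WT and 6.99 in KO, are not at the same place.

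Most last-exon peaks of one genotype had a counterpart in the other. Of the WT members, 2636 (70.7%, 69.2 to 72.2) overlapped a KO peak by at least 1 base, and of the KO members 2736 (71.0%, 69.5 to 72.4) overlapped a WT peak, against 80.0% (WT) and 77.9% (KO) of all peaks. The share followed the certainty of the call: it was 90.1% and 94.4% for members with an FDR of at most 1e-05, and 41.5% and 40.6% for those with an FDR over 0.05. Over all peaks these shares were 93.8% and 92.8%, and 37.3% and 37.0%. Within an FDR range, members were thus close to the lists as a whole, on either side of them. The annotation of the counterpart was not always a last exon. It was another class for 493 WT members, in 194 cases a 3′ UTR and in 110 an internal exon, and for 558 KO members, in 194 cases a 3′ UTR and in 157 an internal exon. At the level of genes, 1697 genes had a last-exon peak in both lists, which is 66.1% of 2568 in WT and 64.4% of 2634 in KO.

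Members without any overlapping peak numbered 1091 in WT and 1120 in KO, and 141 (12.9%) and 80 (7.14%) of these had an FDR of at most 1e-05. That share was not computed for other peaks without an overlap, so it is a description. The median FDR of these members was 0.0240 and 0.0309, against 0.00977 and 0.01 over all peaks without an overlap. Without an overlap it was 0.0257 and 0.0309 in first exons and 0.0309 and 0.0347 in single exons, so a weak FDR was not particular to last exons. In WT the highest were *Zbed4* at 58.6, a gene of a BED-type zinc finger protein, *Fam205a2* at 45.9, *Gm18666* at 44.9 and the receptor tyrosine kinase gene *Alk*, exon 29 of 29, at 31.3. A peak listed for *Mypopos* at 28.3 was in the last exon of its neighbour *Mypop*. In KO the highest was listed for *A730035I17Rik* at 36.2 and lay in exon 5 of 5 of *Prdm8*, a transcriptional regulator of neurons. It was followed by *4933424M12Rik* at 26.7, *Gm38414* at 25.7, the olfactory receptor gene *Olfr316* at 25.7 and a peak listed for the small nucleolar RNA *Snora33* at 16.4, which lay in exon 3 of 3 of its host *Rps12*, a ribosomal protein gene. A missing counterpart says that no peak was called there, not that no methylation was present.

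A direct comparison of fold enrichment was possible for 1810 matched pairs in 1447 genes, in which the WT and KO peaks were both last-exon peaks of the same gene and each other's best overlap. Their median log2 ratio of KO over WT was -0.01, with quartiles of -0.48 and 0.51, against 0.05 over all 23143 matched pairs. In KO, 189 pairs (10.4%, 9.07 to 11.9) were at least 2-fold higher, where the background over all matched pairs was 7.13%, and 197 (10.9%, 9.49 to 12.4) were at least 2-fold lower, where the background was 6.27%. Both directions were thus nearly equal in number, and each share was above its background. With an FDR of at most 1e-05 in both genotypes, 783 last-exon pairs were left. Of these, 56 (7.15%, 5.45 to 9.19) were at least 2-fold higher, where the background was 4.64%, and 55 (7.02%, 5.34 to 9.05) at least 2-fold lower, where the background was 3.57%. Internal-exon pairs, at 4.86% and 5.00%, and 3′ UTR pairs, at 5.23% and 3.66%, had smaller shares. Peaks of these classes also reached an FDR of at most 1e-05 more often, in WT 63.4% and 78.6% against 38.0% in last exons. Pairs in first exons and single exons, the classes most like last exons, were not computed. The larger shares are thus not shown to be particular to last exons. The spread was wider in gene models, where 12.6% and 12.5% of 794 pairs passed 2-fold upwards and downwards, than in named genes, where it was 8.76% and 9.65% of 1016 pairs. Of the pairs near the limit, 82 lay just inside 2-fold by a factor of up to 1.1 and 114 just outside.

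**Figure D5:**
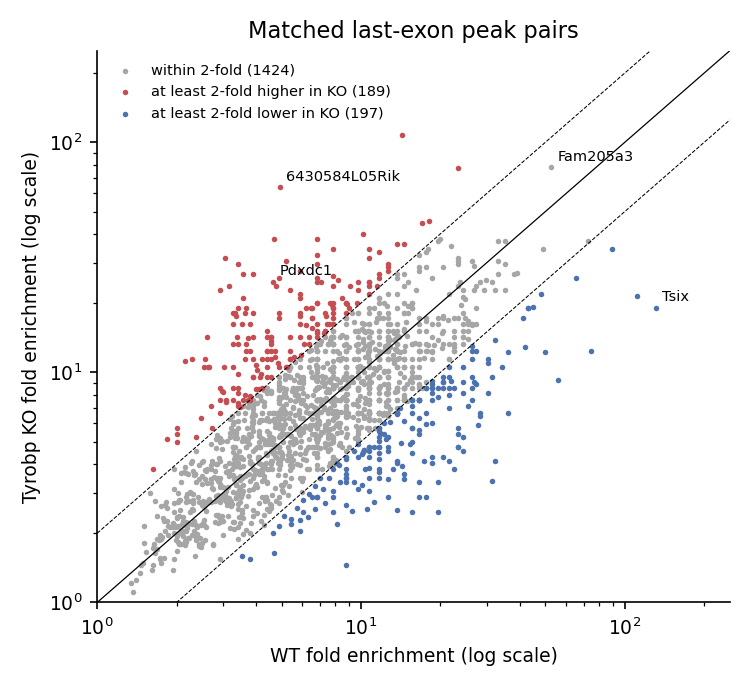
Each point is 1 matched pair of last-exon peaks, with the fold enrichment in WT on the x axis and in Tyrobp KO on the y axis, both logarithmic, a solid line at equal values and dashed lines at 2-fold. The points scatter evenly on both sides, with 189 pairs above the upper and 197 below the lower dashed line.

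The highest single value among the members was in WT at *Eif3j1*, a gene of a translation initiation factor subunit, where a narrow peak in exon 2 of 2 of a short transcript (chr2:122029018-122029077) stood at 280. In KO the position was covered by a spliced peak annotated as an internal exon, at 92.4, so that it entered no last-exon pair. Among matched pairs with a high fold enrichment in both genotypes was *Fam205a3*, with 52.7 in WT and 78.1 in KO in exon 4 of 4. The KO peak was 3657 bases wide and also covered a second WT peak of 144. Fam205a3 and Fam205a2, like Eif3j1, have near-identical copies in the mouse genome, and how shared reads were assigned is not stated, so the values of these genes are uncertain. *Frmd4a*, a FERM-domain scaffold of cell polarity, had 65.4 in WT and 25.7 in KO. *Pikfyve*, a phosphoinositide kinase of endosomes, had 33.2 in WT and 37.2 in KO in exon 10 of 10 of a shorter transcript, and *Csmd2*, a synaptic transmembrane protein gene, had 38.1 and 26.7 in a similar setting. *Rora*, a nuclear receptor gene, had 18.1 in WT and 45.7 in KO in exon 3 of 3, and *Wdr31* had 43.0 in WT and 19.1 in KO in exon 10 of 10. At these pairs KO was higher in *Fam205a3*, *Pikfyve* and *Rora* and lower in *Frmd4a*, *Csmd2* and *Wdr31*. Other last-exon pairs of the same gene could differ in direction: *Csmd2* also had 5.05 in WT against 7.15 in KO and 3.08 against 7.43, and *Frmd4a* had 2.00 against 5.40.

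The largest ratios in either direction among pairs with an FDR of at most 1e-05 in both genotypes were mostly in gene models. The highest ratio was at *6430584L05Rik* (exon 4 of 4, chr6:55410066-55410456 in WT and chr6:55409677-55410546 in KO), with 4.94 in WT and 63.9 in KO, a log2 ratio of 3.69. The KO peak was wider than the WT peak by both borders. The pair listed for *Gm20388*, in an exon of another gene, had 14.3 in WT and 108 in KO, a log2 ratio of 2.92. The pair listed for *Gm15406* had 6.79 in WT and 38.1 in KO. *Pdxdc1*, the gene of a decarboxylase-like protein, had 4.64 in WT and 24.8 in KO in exon 2 of 2 of a short transcript. The pair listed for the transcription factor gene *Myb* lay in the exon of another gene and had 4.76 in WT and 23.8 in KO, a ratio of 5.00.

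The lowest ratios after that of the pair listed for *Tsix* began with the pair listed for *Gm15009*. It lay in exon 10 of 10 of another gene at a position that RefSeq assigns to *BC065397*, with 74.2 in WT and 12.4 in KO, a log2 ratio of -2.58. *1600029O15Rik* had 55.7 in WT and 9.31 in KO in exon 3 of 3, also a log2 ratio of -2.58. *Gm12198* had 111 in WT and 21.4 in KO at the same borders, chr11:50599298-50599950, in exon 2 of 2. The pair listed for *0610040F04Rik* had 27.8 in WT and 5.91 in KO. These pairs were chosen for their ratio, so their values are a description.

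The 541 last-exon rows of the comparison table lay in 505 genes. Of these rows 389 overlapped a WT peak, 450 a KO peak and 8 neither, and 276 overlapped a last-exon peak of both genotypes. Gene models made up 47.9% of the rows. In return, 14.5% of WT members and 15.7% of KO members overlapped a row of that table, against 15.4% and 16.8% of all peaks, so last-exon peaks entered the table about as often as the lists as a whole.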

How the data were processed

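m6A-modified RNA was immunoprecipitated from fragmented poly(A) RNA of mouse hippocampus and sequenced beside its input. According to the study's methods, the authors trimmed reads with fastp, mapped them with HISAT2 to the mouse genome (Ensembl version 96), called peaks with exomePeak from IP and input reads and annotated them. The labels name 1 peak list for the 3 replicates of a genotype, and how these were combined is not stated. ChIPseeker and HOMER are named too in the submitters' processing notes. Versions are not given in the sources used here. Positions match GRCm38 and count from 1.

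The deposited lists give, per peak, a fold enrichment (a ratio of IP over input), a p-value, and log10 p and FDR scores by the authors. Read counts per library and the GC percent were deposited in a quality table. The comparison table also holds the authors' own fold changes, p-values and FDR between genotypes, which were not used: only positions and annotation were read there.

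Members were counted per list, peaks were matched across lists (best mutual overlap, at least 1 base, same gene), and KO was divided by WT. A ratio of 2 was the limit. The matching was tested on simulated data. Shares have exact Clopper-Pearson intervals at 95%. Named members were the 10 matched pairs with the highest geometric mean outside gene models, the 5 highest and 5 lowest ratios at an FDR of at most 1e-05 in both, the top 3 genes per gene list by WT value, the 3 genes with most peaks, and the 5 highest members per list without overlap. Positions in *Tsix*, further peaks of *Grin1* and *Egr2*, and the microRNA and motif sites were named outside this rule after their values were seen. Members and gene lists were chosen with earlier results of these data known. Python 3.11.15, pandas 2.3.3, numpy 2.4.6 and scipy 1.17.1 were used.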

Additional observations from a re-analysis of the deposited data

How the results depend on the processing

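Shares and ratios rest on 1 peak list per genotype. No paired analysis was possible because each list gives 1 value for the 3 replicates of a genotype, and for the same reason no replicate could be left out. The depth behind a fold value is not given per peak. The share of last exons was 11.1% of WT and 11.0% of KO peaks. It was 6.54% and 6.43% at an FDR of at most 1e-05, 12.3% and 12.5% with a minimum fold enrichment of 4, 7.96% and 7.66% without gene models, 6.89% and 6.81% with at least 3 exons, 9.77% and 9.80% with 1 peak per gene, and 7.01% and 6.87% with only exons of the listed transcript. The share of members overlapping the other list was 77.6% in WT and 83.5% in KO when both lists were held to an FDR of at most 1e-05, 68.5% and 66.3% with a minimum fold enrichment of 4, 57.6% and 57.5% with 1 peak per gene, 38.5% and 37.3% under a reciprocal overlap of 50%, and 68.5% and 68.9% with 1 peak per run of overlapping peaks. It was 68.9% in WT without gene models and 73.9% in KO with only exons of the listed transcript. The median log2 ratio was -0.062 after centring on all pairs and otherwise between -0.04 and 0.04. When both lists were held to an FDR of at most 1e-05 before matching, 798 last-exon pairs were left. Pairs at least 2-fold higher and lower in KO made up 7.39% and 7.14% of them. The 783 pairs described earlier were instead filtered after matching. Without gene models the higher share was 8.76%, and under reciprocal overlap the lower share was 8.71%. A limit of 1.5 gave 22.2% and 21.7%, and a limit of 3 gave 3.81% and 3.70%. Each of these settings changes which peaks, overlaps or limits are counted, and no other cause was tested. The 33 values under the remaining settings differed from the main value by less than its counting interval. The settings with only exons of the listed transcript and with 1 peak per run of overlapping peaks were chosen after seeing the data. Peaks that overlapped another peak of their own list made up 11.4% of WT and 11.5% of KO members.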
